A study of Mus musculus with 3 samples.

Results

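Long RNAs that carry microRNAs were examined in chromatin-bound RNA of macrophages. The 5 genes Mir155hg, Mir142hg, Mir22hg, Mir17hg and Dleu2 were taken by symbol, out of 55536 annotated genes, and all 5 had reads in every library. The cells were bone-marrow-derived macrophages, primary cells grown from marrow of C57BL/6J mice whose age and sex were not collected. All libraries are of 1 group: cells given 100 ng per ml Lipid A, the lipopolysaccharide portion that TLR4 senses, for 12 h, then kept 12 h without it and taken at 0 min of renewed exposure. The group has 3 libraries that the labels number as biological replicates, with no untreated control, so values describe this state and no response to Lipid A. They carry 1 donor identifier, and no label says that the cultures came from separate animals, so SDs and p-values measure the spread between these libraries, which may be technical.

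A microRNA begins as a hairpin within a much longer primary transcript, often a non-coding RNA named for it as its host. In the nucleus Drosha, with its partner Dgcr8, cuts the hairpin out, often while the transcript is still on chromatin; Xpo5 exports it, Dicer1 trims it to a short duplex, and an Argonaute protein holds the mature strand, which finds targets mainly through its seed, bases 2 to 8. Mir155hg yields miR-155, which is induced by TLR signalling in macrophages. Mir142hg yields the blood-cell microRNA miR-142, Mir22hg yields miR-22, Mir17hg yields the miR-17-92 cluster linked to proliferation, and Dleu2 yields miR-15a and miR-16-1, lost in many chronic lymphocytic leukaemias. Mature microRNAs are too short for these libraries and were not measured.

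The main mature strands of the 5 hosts are printed to show which of them share a seed. Sequences are RefSeq's on GRCm38.p6, 5′ to 3′, with the seed in capitals.
miR-155-5p: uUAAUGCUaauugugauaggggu
miR-142a-5p: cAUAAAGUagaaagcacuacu
miR-142a-3p: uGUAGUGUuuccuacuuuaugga
miR-22-3p: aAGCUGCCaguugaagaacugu
miR-17-5p: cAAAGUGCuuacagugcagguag
miR-20a-5p: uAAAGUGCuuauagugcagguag
miR-18a-5p: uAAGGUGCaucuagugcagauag
miR-19a-3p: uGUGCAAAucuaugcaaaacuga
miR-19b-3p: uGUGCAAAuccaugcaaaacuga
miR-92a-3p: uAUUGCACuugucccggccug
miR-15a-5p: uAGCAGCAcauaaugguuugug
miR-16-5p: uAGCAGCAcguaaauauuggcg
miR-17-5p and miR-20a-5p share the seed AAAGUGC, miR-19a-3p and miR-19b-3p share GUGCAAA, and miR-15a-5p and miR-16-5p share AGCAGCA. Each shared seed thus stays within a single host, and no seed among the 22 mature strands of these hosts occurs in more than 1 of them.

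Starting RNA was unequal, 1000 ng for replicate 1, 250 for replicate 2 and 500 for replicate 3. The libraries hold 11958978, 17283529 and 19475027 expected counts (replicates 1, 2 and 3). All 7 listed macrophage markers reached 1 TPM in every library, where 46.1% of all annotated protein-coding genes did (TPM is abundance per length, scaled to a fixed sum per library). The median of the 7 was 120 TPM, against 0.91 TPM over all protein-coding genes. Adgre1, the F4/80 antigen, was at 347 ± 77.2 TPM, Lyz2, lysozyme, at 177 ± 67.5 TPM and Itgam, the lowest, at 34.5 ± 3.98 TPM (SD, n = 3). Markers of T and B cells summed to 0.15 to 0.22 TPM per library, led by Cd79a and Ms4a1, with Cd3e at 0; read-based means were 11.4 TPM for Cd3d and 1.03 for Ms4a1. Markers of neutrophils summed to 0.44 to 0.83 TPM, led by Ngp and Mmp8, with Mpo at 0 and at a read-based mean of 1.95 TPM. The 8 stromal markers, Col1a1 and Sparc the highest, summed to 0.04 and 1.71 TPM in replicates 1 and 2 but to 582 TPM in replicate 3. Without replicate 3 the host means were 158 TPM for Dleu2, 83.1 for Mir142hg, 53.1 for Mir22hg, 31.1 for Mir155hg and 2.63 for Mir17hg. Means over all 3 libraries are given next. Leaving out 1 of 3 libraries cannot move a mean by as much as 1 SD, so their nearness is no test of replicate 3. Whether the stromal signal bears on the host levels was not tested. In bulk RNA, fewer cells of a type and less RNA per cell cannot be told apart.

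Dleu2 was the most abundant host per length. Its level was 166, 151 and 164 TPM in replicates 1, 2 and 3 (160.1 ± 8.17, SD, n = 3), from 4448, 4578 and 5304 expected counts. Mir142hg followed at 60.2, 106 and 92.5 TPM (86.2 ± 23.6), from 55, 70 and 87 counts. The low value is replicate 1, and it overlaps the range of the next host. Mir22hg stood at 52.8, 53.3 and 62.8 TPM (56.3 ± 5.64), from 554, 679 and 961 counts. Mir155hg was at 38.1, 24.1 and 31.1 TPM (31.1 ± 7.03), from 474, 337 and 543 counts, with replicate 1 high and replicate 2 low. That is also the order of their starting RNA, whose part in the spread was not tested. Mir17hg was by far the lowest per length, at 2.27, 2.98 and 3.14 TPM (2.80 ± 0.46), from 89, 137 and 178 counts.

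Set among the 10155 annotated long non-coding genes, 4 of the hosts were near the top in mean TPM. Dleu2 ranked 15, Mir142hg 23, Mir22hg 39, Mir155hg 74 and Mir17hg 1030 by mean TPM. Only 1766 of these genes reached a mean of 1 TPM, 337 reached 10 and 20 reached 100, and the median of the 1766 was 3.55. Mir17hg therefore lay below the median detected long non-coding gene. The rank of Mir142hg rests on 55 to 87 counts over an annotated length of 269 bases. In CPM, counts scaled by library size and not per length, its mean of 4.40 was the lowest of the 5. Mir17hg was at 8.22 CPM.

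**Figure D1:**
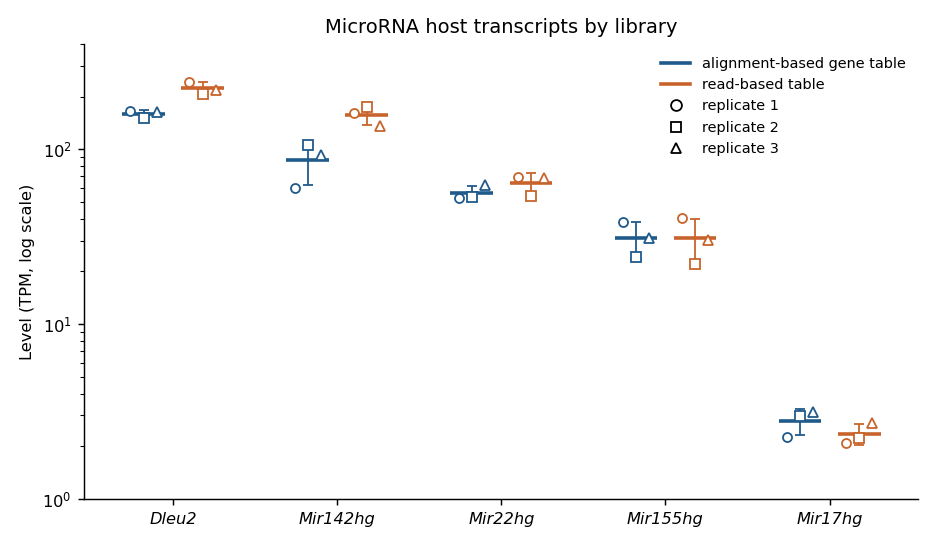
Level of each host in TPM (log axis) in 3 libraries, from the alignment-based gene table and from the read-based table. Symbols are libraries, bars are means and whiskers are 1 SD. Dleu2 is highest and Mir17hg lowest in both tables, and Mir142hg is the host whose values lie farthest apart between them.

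The order in TPM held in each library for every neighbouring pair, but the gaps differed in size. Dleu2 exceeded Mir142hg by 1.46, 0.51 and 0.82 on the log2 scale in replicates 1, 2 and 3 (0.93 ± 0.49), and the ranges did not overlap. Mir142hg exceeded Mir22hg by 0.19, 0.99 and 0.56 (0.58 ± 0.40), the same sign in each library although their TPM ranges overlapped. Mir22hg exceeded Mir155hg by 0.47, 1.15 and 1.02 (0.88 ± 0.36), and Mir155hg exceeded Mir17hg by 4.07, 3.01 and 3.31 (3.46 ± 0.55), both without overlap. An exact two-sided sign-flip test over 3 libraries gave p = 0.25 for each of the 4 pairs (0.25 after Benjamini-Hochberg adjustment). That is the smallest p that 3 libraries allow. Pairs and their direction were taken from mean TPM in these same libraries, so the test is no independent support for the order. The read-based table gave the same order, with Mir142hg at 160.4, 174.6 and 136.6 TPM and no overlap with Mir22hg at 69.6, 54.1 and 68.7.

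Where the hairpin lies within the annotated transcript separates the hosts. It is exonic in Mir155hg, Mir22hg and Mir17hg, intronic in Mir142hg, and outside annotated exons in Dleu2 except for 13 bases of Mir16-1. The annotation places 12 microRNA genes inside the hosts, all on the host's strand except Mir142b, which is opposite Mir142. All coordinates are mm10. Hairpins of the single-hairpin hosts are printed with both mature arms in capitals (RefSeq, GRCm38.p6), to show the part of the host that is cut out: Mir155 at chr16:84714140-84714204, plus strand; Mir22 at chr11:75463716-75463810, plus strand; Mir142 at chr11:87756864-87756927, plus strand.
Mir155: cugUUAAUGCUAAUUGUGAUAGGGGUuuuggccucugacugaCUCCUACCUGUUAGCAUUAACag
Mir22: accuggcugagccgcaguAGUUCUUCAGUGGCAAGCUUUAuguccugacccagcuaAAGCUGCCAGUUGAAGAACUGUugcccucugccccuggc
Mir142: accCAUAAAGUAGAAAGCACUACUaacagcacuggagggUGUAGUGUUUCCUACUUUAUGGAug
The Mir155 and Mir22 hairpins form part of the spliced host RNA. Mir142 belongs to the intron of its host.

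**Figure D2:**
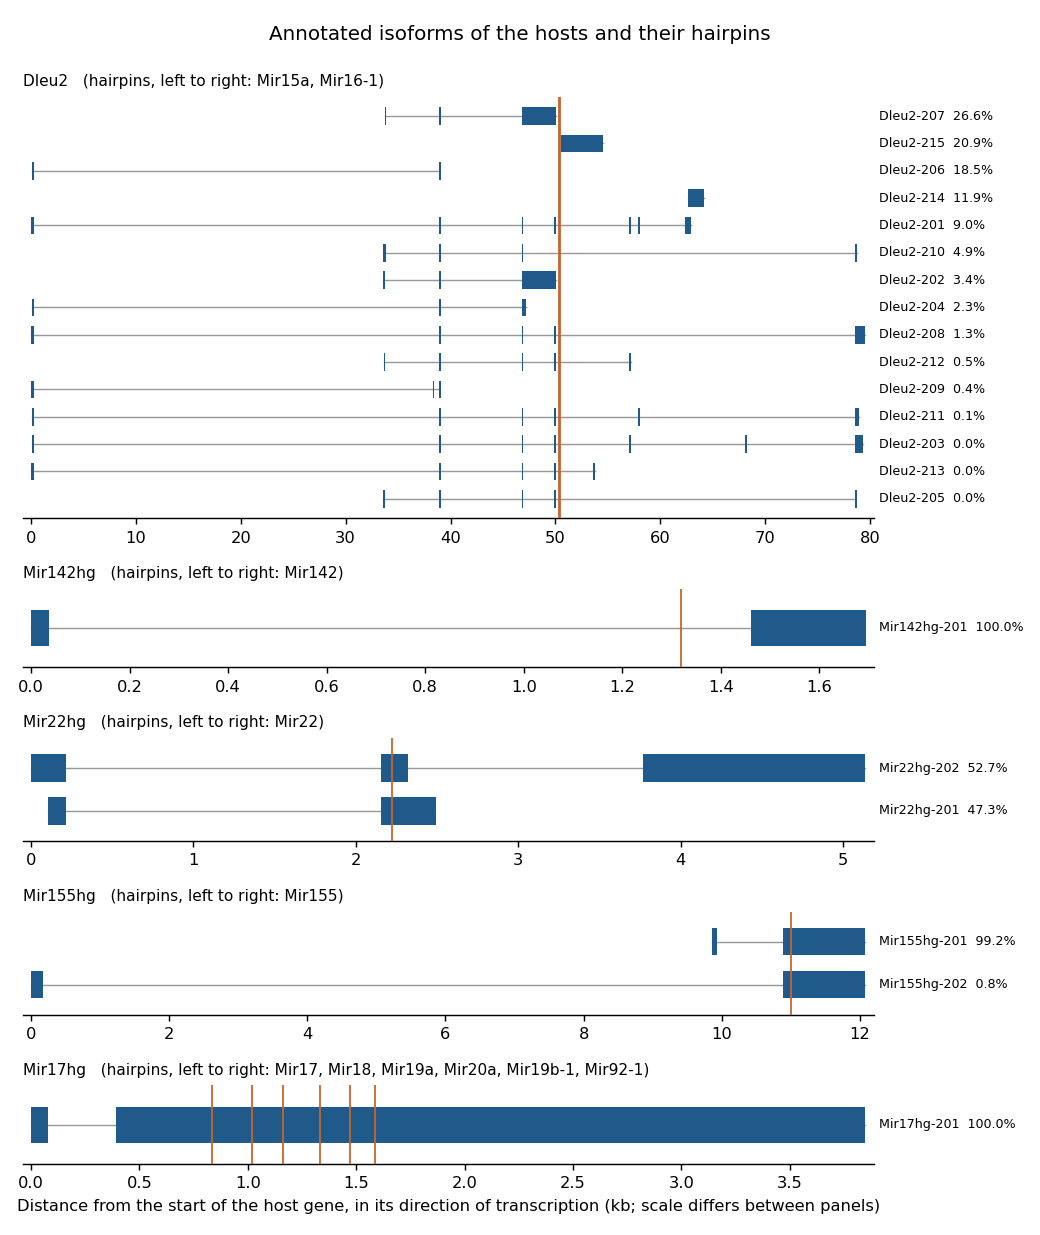
Annotated isoforms of the 5 hosts against distance from the start of the host gene in kb, with a scale of its own in each panel. Boxes are exons, grey lines introns and orange lines same-strand hairpins, and the number beside an isoform is its mean share of the host's TPM in the alignment-based table. Orange lines cross boxes in Mir22hg, Mir155hg and Mir17hg, and grey lines or gaps in Mir142hg and Dleu2, apart from 13 bases at the edge of Dleu2-215.

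Mir155hg (ENSMUSG00000097418.7, chromosome 16, 84703167 to 84715245, plus strand, lincRNA) was assigned almost wholly to its downstream-start form in the alignment-based table. Mir155hg-201, which starts 9856 bases into the gene, took 97.7%, 100% and 100% of the host's TPM in replicates 1, 2 and 3. Mir155hg-202 starts at the gene's first base and took the remainder. The isoforms share their second exon of 1193 bases, which holds Mir155, and differ only in the first, of 71 bases in Mir155hg-201 and 169 in Mir155hg-202. That leaves few reads to tell them apart: the deposited posterior count of Mir155hg-202 was 23.7 with an SD of 17.2 in replicate 1, 9.44 with 9.60 in replicate 2 and 11.1 with 10.6 in replicate 3. The read-based table gave Mir155hg-202 23.0%, 18.2% and 17.2%. The tables thus put the form with the upstream start at very unlike shares, while each isoform holds the hairpin, at base 159 of Mir155hg-201 and base 257 of Mir155hg-202.

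Mir22hg (ENSMUSG00000085148.1, chromosome 11, 75461539 to 75466676, plus strand, processed transcript) was divided between its isoforms. The 3-exon form Mir22hg-202, of 1752 bases, took 49.9%, 55.4% and 52.7% of TPM, and the 2-exon form Mir22hg-201, of 449 bases, took 50.1%, 44.6% and 47.3%. No library departs far from an even division. Mir22 lies in exon 2 of both, so 100% of the host's TPM is in forms that hold it. Counts, which are not per length, were divided less evenly: Mir22hg-202 held 86.4%, 90.8% and 89.2% of the expected counts, and its last exon alone spans 1370 bases. In the read-based table its share of TPM was 35.1%, 40.6% and 38.3%. The protein-coding gene Tlcd2 overlaps Mir22hg on the same strand, with 206 exon bases in common, and stood at 1.13 ± 0.58 TPM.

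Mir17hg (ENSMUSG00000089726.2, chromosome 14, 115042879 to 115046727, plus strand, lincRNA) has 1 isoform of 3536 bases. Its 6 hairpins, in the order Mir17, Mir18, Mir19a, Mir20a, Mir19b-1 and Mir92-1, start at bases 480, 660, 809, 966, 1114 and 1236 of the spliced RNA. All are in exon 2, which spans 3457 bases. The deposited values give the host as a whole, so the 6 hairpins cannot be ranked from it. Its neighbour Gpc5, a cell-surface proteoglycan gene that starts 45487 bases beyond the host's end, was listed at 0 TPM in every library. The nearest protein-coding gene on the other side, Tpm3-rs7, lies 1726124 bases away and was at 1.36 ± 0.41 TPM.

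Mir142hg (ENSMUSG00000084796.1, chromosome 11, 87755577 to 87757270, plus strand, lincRNA) has 1 annotated isoform with exons of 37 and 232 bases. Mir142 lies in the intron, 1250 bases past the end of exon 1 and 111 bases before exon 2. The exonic length of 269 bases is near the fragment size, and this bears directly on the TPM. The effective length, the number of start positions a fragment can have, was 77.7, 46.9 and 54.5 in replicates 1, 2 and 3, and TPM divides the counts by it. CPM, the counts scaled by library size alone, were 4.66, 4.07 and 4.48. The coefficient of variation over libraries was 27.3% in TPM and 6.87% in CPM, and the lowest library in TPM, replicate 1, was the highest in CPM. Counting error is also wide here, with 95% exact Poisson intervals of 41.4 to 71.6 counts in replicate 1, 54.6 to 88.4 in replicate 2 and 69.7 to 107 in replicate 3, which cover counting error only.

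The quantifications also disagreed most for Mir142hg. The read-based table gave 256, 461 and 376 counts, and its CPM was 2.98, 3.57 and 2.53 times the alignment-based CPM in replicates 1, 2 and 3. Among 11871 genes averaging 50 counts or more, 96.9%, 97.9% and 96.7% had a smaller ratio. For the other 4 hosts the ratio lay between 0.78 and 1.01. Tspoap1, a protein-coding gene that starts 3270 bases beyond Mir142hg on the same strand, was at 91.5, 107 and 52.2 TPM (83.7 ± 28.4), and Supt4a, on the other side, at 4.52 ± 1.46 TPM. Replicate 3 was the lowest of Tspoap1 and the middle one of Mir142hg.

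**Figure D3:**
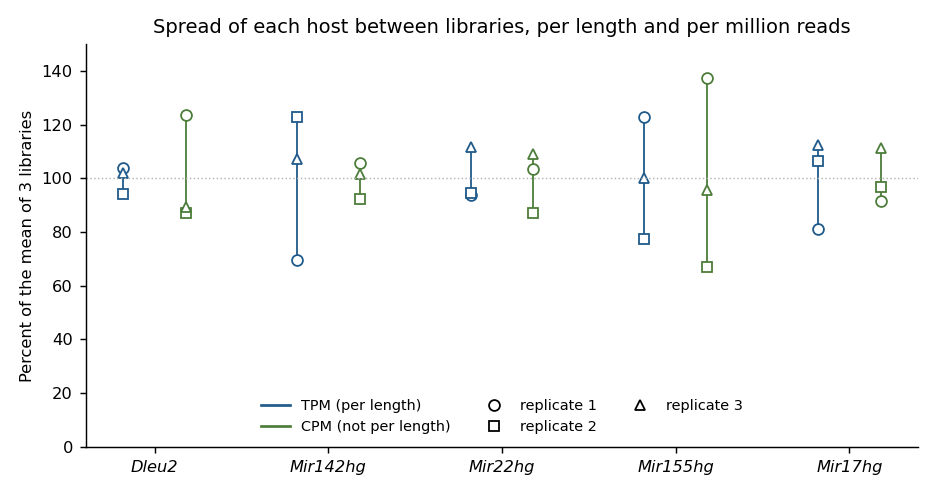
Value of each host in each library as a percent of its mean over 3 libraries, in TPM and in CPM. Lines join the lowest and the highest library. Mir142hg is wide in TPM and narrow in CPM, and Dleu2 is the reverse, with 123% of its mean CPM in replicate 1.

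Dleu2 (ENSMUSG00000097589.9, chromosome 14, 61602839 to 61682373, minus strand, processed transcript) spans 79535 bases and has 15 annotated isoforms. None holds the whole Mir15a or Mir16-1 hairpin in an exon. Isoforms whose intron spans the hairpins, 8 in all, took 20.4%, 14.8% and 12.4% of the host's TPM (15.9% ± 4.13). Another 5 end before Mir15a and took 43.7%, 52.6% and 57.5% (51.3% ± 6.99). The other 2, single-exon models, lie past Mir15a and took 35.9%, 32.6% and 30.1% (32.9% ± 2.87). Most of the Dleu2 signal was thus assigned to forms annotated on either side of the hairpins, in every library. The read-based table gave 18.6% ± 3.16, 57.9% ± 5.13 and 23.5% ± 2.00 for the same groups, and ranked the groups the same way in every library. No Dleu2 exon enters the 406 bases that hold Mir15a and most of Mir16-1, so reads lying wholly there could not be assigned to Dleu2. These shares therefore do not show whether Dleu2 RNA crosses the hairpins. Whether reads of the flanking forms come from unspliced Dleu2 was not tested.

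Reads of Dleu2 were assigned mainly to 2 isoforms that flank the hairpins. Dleu2-207 held 40.2%, 41.6% and 43.2% of the expected counts and Dleu2-215 held 36.7%, 40.2% and 38.2%, together 80.04% ± 2.70 (SD, n = 3). In alignment-based TPM Dleu2-207 took 27.6%, 27.5% and 24.7% and Dleu2-215 took 21.5%, 22.6% and 18.7%. In read-based TPM their mean shares were 13.8% and 13.1%, below 21.8% for Dleu2-206 and 18.8% for Dleu2-209. Dleu2-207 is spliced and ends in an exon of 3293 bases whose last base lies 188 bases before the Mir15a hairpin. Dleu2-215 is 1 exon of 4098 bases that starts inside the Mir16-1 hairpin. Between them lie 406 bases, chr14:61631893-61632298, which no Dleu2 exon enters and which hold Mir15a and 80 of the 93 bases of Mir16-1. Dleu2-202 shares 3243 bases of its last exon with Dleu2-207, and the deposited posterior SD of about 83 to 86 counts for each, against 0.33 to 0.54 for Dleu2-215, shows that these 2 were not well separated.

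The Mir16-1 hairpin (chr14:61631880-61631972, minus strand; RefSeq, GRCm38.p6) is printed to show that edge, with the 13 bases that belong to Dleu2-215 in capitals.
Mir16-1: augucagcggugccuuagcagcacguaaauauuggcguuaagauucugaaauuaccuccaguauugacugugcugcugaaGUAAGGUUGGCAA
The annotated start of Dleu2-215 lies 2 bases past the last base of the miR-16-1-3p arm. Dleu2-215 is of the class TEC, single-exon models built from transcript evidence that await experimental proof, as is Dleu2-214. Of its 4098 bases, 211 are in exons of spliced Dleu2 isoforms, and of the 1557 bases of Dleu2-214, 279 are. Whether their reads come from separate RNAs or from unspliced Dleu2 was not tested.

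Short isoforms of Dleu2 had large shares from few reads. Dleu2-206, of 318 bases, took 10.03%, 16.3% and 29.2% of TPM, the widest range of any Dleu2 isoform in that table, from 23.3, 27.1 and 73.6 counts, which are 0.52%, 0.59% and 1.39% of the gene's counts. It added 16.65, 24.58 and 47.82 TPM to the host in replicates 1, 2 and 3, so the host's small SD in TPM depends in part on it. The coefficient of variation of Dleu2 was 5.10% in TPM and 20.3% in CPM. Dleu2-209, of 352 bases, took 1.05%, 0% and 0% in the alignment-based table and 18.3%, 18.0% and 20.0% in the read-based table. These shares are therefore weakly determined. Dleu2-214 took 14.4%, 9.99% and 11.5% of TPM.

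**Figure D4:**
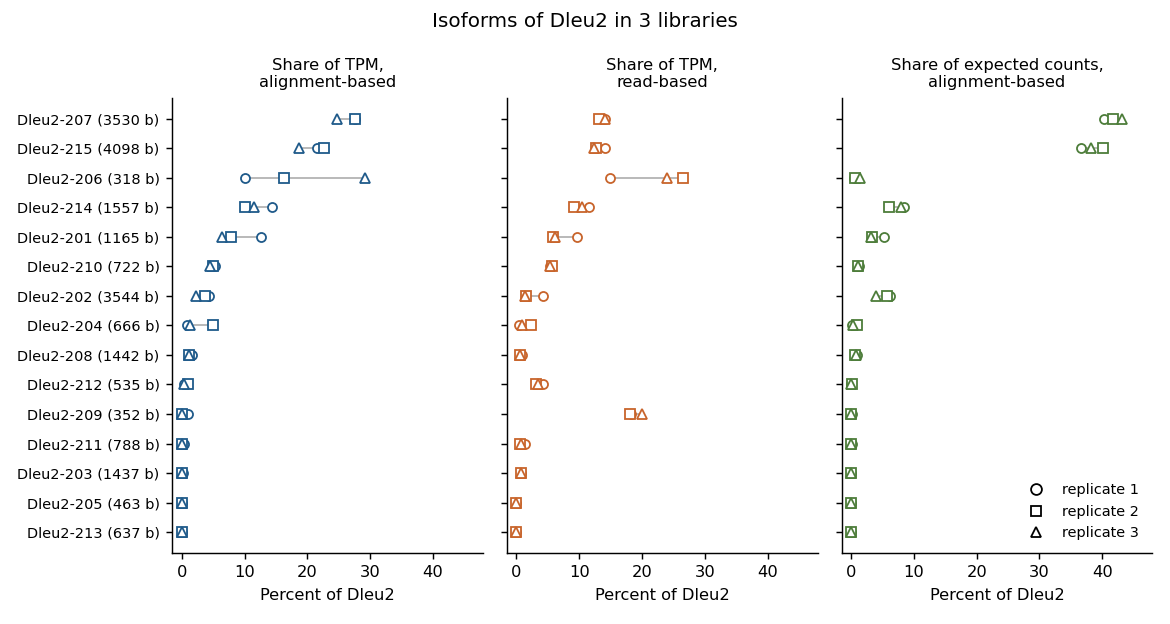
Share of each annotated Dleu2 isoform in 3 libraries, as percent of the host's TPM in the alignment-based and the read-based table and as percent of its expected counts. Lengths in bases stand beside the names and lines join the lowest and highest library. Dleu2-207 and Dleu2-215 hold most counts, whereas the 318-base Dleu2-206 has a large share of TPM and almost none of the counts.

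Other annotated genes on the strand of Dleu2 lie within its introns; whether their reads come from Dleu2 RNA was not tested. Gm37472, from 0.879 to 4.93 kb past the start of Dleu2, was at 49.2, 49.6 and 41.9 TPM (46.9 ± 4.35), and Gm37420, from 12.2 to 15.2 kb, at 38.6, 47.5 and 36.9 TPM (41.02 ± 5.70). Past the hairpins, Dleu2-215 was at 35.7, 34.1 and 30.5 TPM (33.4 ± 2.65), Gm27010, from 55.04 to 56.4 kb, at 19.2, 19.1 and 17.04 TPM (18.5 ± 1.24), and Dleu2-214, from 62.6 to 64.2 kb, at 23.8, 15.1 and 18.8 TPM (19.2 ± 4.40). In this table the features before the hairpins were above those past them in every library. Read-based means were nearer to each other, at 36.1 TPM for Gm37472, 33.7 for Gm37420, 29.3 for Dleu2-215, 33.8 for Gm27010 and 23.4 for Dleu2-214, so the separation did not hold there.

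**Figure D5:**
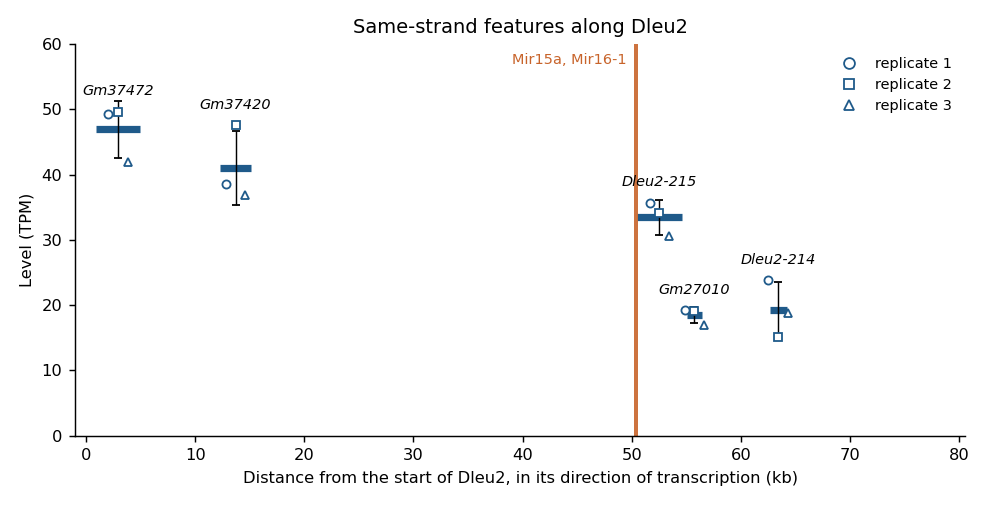
Mean level in TPM (alignment-based tables) of annotated same-strand features along Dleu2, against distance from its start in kb. Thick bars are the features, symbols the 3 libraries, whiskers 1 SD and orange lines the Mir15a and Mir16-1 hairpins. The 2 features before the hairpins stand at 36.9 TPM or higher in each library and the 3 past them at 35.7 TPM or less.

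On the opposite strand, Trim13 and Kcnrg, protein-coding genes at the far end of Dleu2, were at 5.06 ± 0.26 and 6.93 ± 0.80 TPM. The non-coding Gm27017 was at 12.9 ± 4.92 TPM and Gm27928 at 39.0 ± 22.03 TPM, the latter from 19 to 36 counts. Gm27972, of 137 bases, was listed at 163 ± 63.7 TPM from 2.48 to 8.84 counts on an effective length of 1.70 to 3.27, which makes the TPM uninformative. Gm27845, Gm26916 and Gm27747 were listed at 0. Whether strand was used in counting was not given in the sources used here; reads of genes on opposite strands cannot be told apart.

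The separate hairpin genes were not measurable in the alignment-based tables. All 12 are 64 to 115 bases long, shorter than the library fragments, and have an effective length of 0 and an expected count of 0 in all 3 libraries, as do most of the 2207 annotated microRNA genes, of which 1996 have an effective length of 0 in every library. A listed 0 there is no measurement. The read-based table gave Mir142b 114, 149 and 141 counts, which placed it 50 among the microRNA genes by mean count, and Mir15a 35, 38 and 53 counts, at 183. Mir16-1 had 0, 3 and 3 counts, and the other 9 had 0 in every library. Set against the host in the same table, the counts of Mir142b were 44.5%, 32.3% and 37.5% of those of Mir142hg, on whose opposite strand it is annotated, and those of Mir15a were 0.60%, 0.53% and 0.67% of those of Dleu2. Mir142, on the host's own strand and within the same bases, had 0.

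Spread between libraries was next tested for the hosts within a fit over all genes. All 5 hosts passed the filter on low counts among 14839 genes. That filter asks for enough counts in every library. Genes nearly absent from 1 library, such as Col1a1 at 1, 34 and 14624 counts, were therefore outside the shares given here. With no filter, 49 of 25532 genes were called and 25.6% were above 2-fold, with no host among them. None was called more variable than the trend by edgeR's quasi-likelihood fit (smallest adjusted p = 0.96, Benjamini-Hochberg), where 0% of all genes tested were called and 747 genes had an unadjusted p under 0.05. The fit misses differences as small as those of the hosts, so the lack of a call does not show that they were steady. Mir155hg had the largest spread of the 5, with 39.6, 20.7 and 27.2 normalised CPM in replicates 1, 2 and 3, an unadjusted p of 0.044 and an adjusted p of 0.96. Its highest library was 1.91 times its lowest, a larger range than 88.2% of genes tested. Dleu2 followed with 372, 281 and 266 normalised CPM and a ratio of 1.40. Ratios of Mir17hg, Mir22hg and Mir142hg were 1.20, 1.16 and 1.07, below the median of 1.32 over all genes tested. No host was above 2-fold, where 9.88% of genes were. In CPM without normalization factors the ratio of Mir155hg was 2.04, past that limit, where 10.7% of genes were.

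RNA of genes that make and use microRNAs was detected for nearly the whole list. Of 30 genes of microRNA processing and action, 28 reached 1 TPM in every library, and 28 also reached 5 TPM. The list's median was 26.3 TPM. For comparison, 46.1% of all annotated protein-coding genes reached 1 TPM in every library, and their median was 0.91 TPM. Ddx5 and Ddx17, RNA helicases that assist Drosha, were the highest at 907 ± 85.1 and 386 ± 54.04 TPM. Adar, an enzyme that deaminates adenosines in double-stranded RNA, was at 203 ± 33.8 TPM, Srrt, which links the cap-binding complex to processing, at 197 ± 6.57 TPM, and Tut7, a terminal uridylyltransferase, at 160.4 ± 15.2 TPM.

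RNAs of the core factors were below those helicases. Drosha was at 27.0, 30.9 and 25.8 TPM (27.9 ± 2.70) and its partner Dgcr8 at 24.6, 29.8 and 26.3 TPM (26.9 ± 2.64), close together in each library, but their read-based means were 32.4 and 107.7 TPM. The exporter Xpo5 was at 11.2, 13.1 and 15.0 TPM (13.1 ± 1.94), Dicer1 at 20.9, 29.4 and 26.9 TPM (25.7 ± 4.35) and Ago2, the slicing Argonaute, at 10.6, 13.0 and 14.6 TPM (12.7 ± 2.01). Read-based means were 13.0 TPM for Xpo5, 32.0 for Dicer1 and 23.4 for Ago2, and those of Ago3 and Ago4, other Argonautes, were 69.4 and 42.0 against 33.8 and 17.1 TPM in the alignment-based table. Lin28a and Lin28b, RNA-binding proteins of early development that block maturation of let-7, were listed at 0 in every library, with read-based means of 0.05 and 0.14 TPM.

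Genes known as targets of these microRNAs were also present. All 23 listed reached 1 TPM in each library, where 46.1% of all annotated protein-coding genes did. The median of the 23 was 15.5 TPM, against 0.91 TPM over all protein-coding genes. Inpp5d, the SHIP1 lipid phosphatase and a target of miR-155, was the highest at 183, 257 and 159 TPM (200 ± 51.2). Max, the partner of Myc and a target of miR-22, was at 105 ± 11.7 TPM, Tab2, a signalling adaptor and a target of miR-155 and miR-142, at 73.6 ± 4.12 TPM, and Spi1, the transcription factor PU.1 and a target of miR-155, at 61.6 ± 6.67 TPM. The lowest was Ccne1, cyclin E1, a target of miR-15 and miR-16, at 1.89 ± 0.49 TPM. These are levels of chromatin-bound RNA, and nothing on targeting was tested.

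Of 6 other genes annotated as microRNA hosts by name, 2 reached 1 TPM in every library of the alignment-based table, as did 14.4% of all long non-coding genes. Mir99ahg was at 65.5, 70.3 and 80.8 TPM (72.2 ± 7.82), between Mir142hg and Mir22hg in mean level. Mir133a-1hg was at 2.59 ± 1.02 TPM and Mir670hg at 0.33 ± 0.04 TPM, against read-based means of 26.7 and 22.1 TPM, so their levels are not settled by these tables. Mir124-2hg and Mir124a-1hg were listed at 0, with read-based means of 4.24 and 1.09 TPM.

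Genes with a level most like each host were found among 32178 protein-coding and long non-coding genes by the smallest maximal difference in log2(TPM + 1) over the 3 libraries. They were Fubp1, Riok3 and Skap2 for Dleu2 (differences of at most 0.08), Cd37, Gnb2 and Acox3 for Mir142hg (at most 0.18), Trmt1, Usp14 and Usp9x for Mir22hg (at most 0.08), Fnbp1l, Mcts1 and Nipbl for Mir155hg (at most 0.15), and Trappc5, Rfng and Plag1 for Mir17hg (at most 0.06). Likeness was not rare: from 201 genes for Dleu2 to 1228 for Mir17hg lay within 0.5 of the host in every library. Among the flanking genes not yet given, Mrpl39, which lies 2330 bases past Mir155hg on the opposite strand, was at 9.68 ± 1.22 TPM. A730009L09Rik, 179278 bases away on the other side, was listed at 0. Beside Mir22hg, Wdr81 was at 28.2 ± 5.60 TPM and Prpf8, a core splicing factor gene, at 18.9 ± 2.27 TPM. Of the nearest protein-coding genes outside Dleu2, Spryd7, 45952 bases away, was at 2.67 ± 0.58 TPM. Dleu7, 593857 bases away on the other side, was listed at 0.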

How the data were processed

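Total RNA-seq with ribosomal depletion was analysed in 3 libraries of 1 group. Each has a gene table and 2 transcript tables, 1 from alignments and 1 from reads, made by the authors on mm10 with GENCODE M21, per the file headers of the deposited README texts. Quantifier, version and strand use were not given in the sources used here. The authors deposited expected counts and TPM. TPM was scaled over all rows, short RNAs included. Posterior means and SDs of isoform counts were deposited too and are used as a score of how well isoforms were separated. Depth was 11958978 to 19475027 expected counts, and 18600052 to 33200218 estimated counts when quantified from reads. Rows without a gene, with 0.24% to 1.31% of expected counts, were left out of library sizes. Poisson intervals cover counting error only. Shares are estimates without an interval, and their SDs are between libraries. No libraries were duplicates (chi-square per degree of freedom 39.1 to 72.0).

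Levels, shares and ranks were computed in Python 3.11.15 (pandas 2.3.3, numpy 2.4.6, scipy 1.17.1) and drawn with matplotlib 3.10.9. Hairpin positions came from GENCODE M21. Of 12 hairpins, 11 matched RefSeq's sequences with the same coordinates; Mir15a did not match as a hairpin. Spread was estimated in R 4.3.3 by edgeR 4.0.16, after rounding expected counts, using filterByExpr, TMM and an intercept, and each quasi-dispersion was tested against the trend (F test, upper tail, adjusted p under 0.05). Tested on simulated data, this step recovered large changes in 1 library but missed changes as small as those of the hosts. The simulated spread was below the biological coefficient of variation of 0.21 fitted to these data. Only well-counted genes that had passed the filter were changed, so recovery in these data may be lower. The range is the highest over the lowest library in TMM-normalised CPM with 0.1 added.

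The members, lists and alternatives were chosen with earlier results of these data known. Named are the hosts, the microRNA genes inside them, their 4 leading isoforms in either table, overlapping and flanking genes, the highest and lowest of each list, the core processing enzymes, the 3 genes nearest in level and the 2 highest markers of each cell type. Mir9-3hg, listed at 0 like Mir124-2hg and Mir124a-1hg, tied for the last place among other hosts. Alternatives were the read-based table, TPM rescaled to nuclear coding and long non-coding genes, RLE scaling, no filter, a pseudocount of 1 and leaving out each library.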

Additional observations from a re-analysis of the deposited data

How the results depend on the processing

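Of 103 alternatives to 20 values, 80 were scored as unchanged, by the replicate SD or by 1.5 times a count. Of the 103, 60 left out 1 library, and 55 of these were among the 80. Leaving out 1 of 3 libraries cannot move a mean by 1 SD, so for means that score was fixed in advance. It was also fixed for the Mir155 and Mir22 shares, which are 100% by annotation. The 80 are therefore no measure of robustness. Among the 80, the log2 ratio of Mir142hg over Mir22hg kept only its direction, at 1.30 in read-based TPM against 0.58 ± 0.40. None of the alternatives reversed a direction. The order of the hosts in TPM and the count of 28 processing genes held in all that were run. All alternatives for the order were in TPM. In mean CPM, which is not per length, Mir142hg at 4.40 was below Mir17hg at 8.22, Mir155hg at 29.2 and Mir22hg at 45.3. In read-based TPM the means were 157 for Mir142hg, 64.1 for Mir22hg and 223 for Dleu2. Rescaled to nuclear coding and long non-coding genes, they were 375 for Dleu2, 197 for Mir142hg, 131 for Mir22hg, 73.8 for Mir155hg and 6.47 for Mir17hg; the rescaling divides all genes of a library by 1 number, so the order test was not run on it. The share of Mir155hg-201 was 80.5% in the read-based table, that of Mir22hg-202 38.0% and that of Dleu2-207 13.8%; as shares of counts, Mir22hg-202 was at 88.8% and Dleu2-207 at 41.7%, since counts are not divided by length. The cause of the differences between tables was not tested. Over-dispersed genes numbered 49 with no filter and 10 on read-based counts, and from 0 to 73 when 1 library was left out (8 without replicate 1, 0 without replicate 2 and 73 without replicate 3), with no host among them; 726 genes had an unadjusted p under 0.05 without replicate 2. Genes above 2-fold were 25.6% with no filter, 5.27% with a pseudocount of 1 and 3.17% to 6.57% when 1 library was left out, again with no host. In CPM without normalization factors, an alternative chosen after seeing the data, 1 host, Mir155hg, was above 2-fold. Depth limits Mir142hg and Mir17hg most, with 55 to 178 counts a library.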
